A study of Mus musculus with 2 samples.

Results

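The VEGF family and its receptors were followed through 2 single-cell RNA-seq libraries of mouse dorsal meninges. The members were the 10 genes whose symbols match the family list, of 32285 genes in the count matrices: 5 ligands (Vegfa, Vegfb, Vegfc, Vegfd and Pgf) and 5 receptors or co-receptors (Flt1, Kdr, Flt4, Nrp1 and Nrp2). All 10 symbols were found, each in 1 row, and all 10 had UMIs in both libraries. The Sham library was pooled from 5 mice 1 week after a Sham procedure, and the TBI library from 5 mice 1 week after a mild closed-skull TBI. Both groups were male wild-type C57BL/6 mice, recorded as 10 weeks old in one field and as 10-12 weeks in another. The tissue was the dorsal part of the meninges, which leaves out the directly struck site, and live single cells were sorted before capture. With 1 library per group there is no replicate, so no test between Sham and TBI was made, and every interval below covers counting error only.

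VEGF ligands are secreted dimers that bind receptor tyrosine kinases on endothelial cells and drive vessel growth, permeability and survival. VEGF-A signals mainly through VEGFR-2 (Kdr), while VEGFR-1 (Flt1) binds VEGF-A, VEGF-B and PlGF tightly and often acts as a decoy. VEGF-C and VEGF-D act through VEGFR-3 (Flt4), the main receptor of lymphatic growth, and neuropilins (Nrp1 and Nrp2) serve as co-receptors that also bind class 3 semaphorins. In the meninges, blood vessels of the dura are fenestrated, those of the pia and arachnoid carry barrier properties, and lymphatic vessels run along the dural sinuses.

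After filtering, 2043 Sham and 3773 TBI cells with 7866611 and 13940740 UMIs were kept, with medians of 2764 and 2663 UMIs per cell. Of these, 14 cell barcodes occurred in both libraries, and leaving them out moved no member ratio across the limit used below. The cells formed 28 clusters, of which 27 were named by 19 marker-defined classes, and a name is written "-like" because it rests on markers alone. The 4 endothelial-like clusters (308 Sham and 579 TBI cells) each had 11 to 15 endothelial markers among their 50 leading genes, the 2 fibroblast-like clusters (118 and 758 cells) 9 and 17 fibroblast markers, and the 4 macrophage-like clusters (400 and 849 cells) 8 to 16 macrophage markers. The 10 members were kept out of the genes used for clustering and are not among the markers. Levels are UMI counts of a class scaled to a common total (CPM) with exact 95% Poisson intervals. Reads come from the 3' end of transcripts, so isoforms, such as soluble Flt1 or the splice forms of Vegfa, cannot be told apart, and levels are compared between cells for 1 gene and not between genes.

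On GRCm38, Vegfa lies at chr17:46016993-46032369, Vegfb at chr19:6982473-6987651, Vegfc at chr8:54077606-54187096, Vegfd at chrX:164373378-164402650 and Pgf at chr12:85166635-85177790. The receptor genes lie at chr5:147561604-147726011 (Flt1), chr5:75932827-75978458 (Kdr) and chr11:49609263-49652739 (Flt4), and the co-receptor genes at chr8:128358604-128503363 (Nrp1) and chr1:62703285-62818695 (Nrp2). Vegfa, Vegfb, Pgf, Flt1 and Kdr are on the minus strand and the others on the plus strand. Counts were made per gene, so no value below belongs to a single exon or UTR.

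The 3 receptor kinases were almost restricted to endothelial-like cells in UMI terms. Flt1 had 1698 UMIs in the Sham library and 2901 in the TBI library, of which endothelial-like cells held 94.9% and 94.1%. The shares for Kdr were 96.2% of 933 and 93.5% of 1456 UMIs, and for Flt4 95.3% of 86 and 94.2% of 191 UMIs. In endothelial-like cells the level of Flt1 was 2617 CPM (2491 to 2748) in Sham and 2070 CPM (1993 to 2149) in TBI. That of Kdr was 1458 CPM (1364 to 1556) and 1032 CPM (978.0 to 1088), and that of Flt4 133 CPM (106 to 165) and 136 CPM (117 to 158). For Flt1 and Kdr the endothelial interval lay above that of every other of the 16 classes with at least 20 cells in each library, in both libraries. For Flt4 this held in TBI, while in Sham the interval of the pericyte- or smooth muscle-like class (1 UMI) reached into it.

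The shares of cells were taken at the full and at an equal depth. A UMI of Flt1 was found in 91.6% of Sham and 91.0% of TBI endothelial-like cells, of Kdr in 75.0% and 72.5%, and of Flt4 in 19.8% and 24.7%. With every cell thinned to 1000 UMIs, leaving aside the shallower 388 Sham and 539 TBI cells, the shares were 85.8% and 84.2% for Flt1, 65.3% (58.9 to 71.3) and 54.4% (49.8 to 58.9) for Kdr, and 12.1% and 16.0% for Flt4. B-like cells, which should lack all 3 kinases, had a Flt1 UMI in 0.539% and 1.04% of cells, a Kdr UMI in 0.270% and 0 of 288 cells, and a Flt4 UMI in 0 of 371 and 0 of 288 cells, at median depths of 3082 and 2660 UMIs against 1817.5 and 1984 in endothelial-like cells. A count of 0, taken as at most 3 counts rather than by the exact interval, allows a share of up to 0.809% of 371 and 1.04% of 288 cells.

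**Figure D1:**
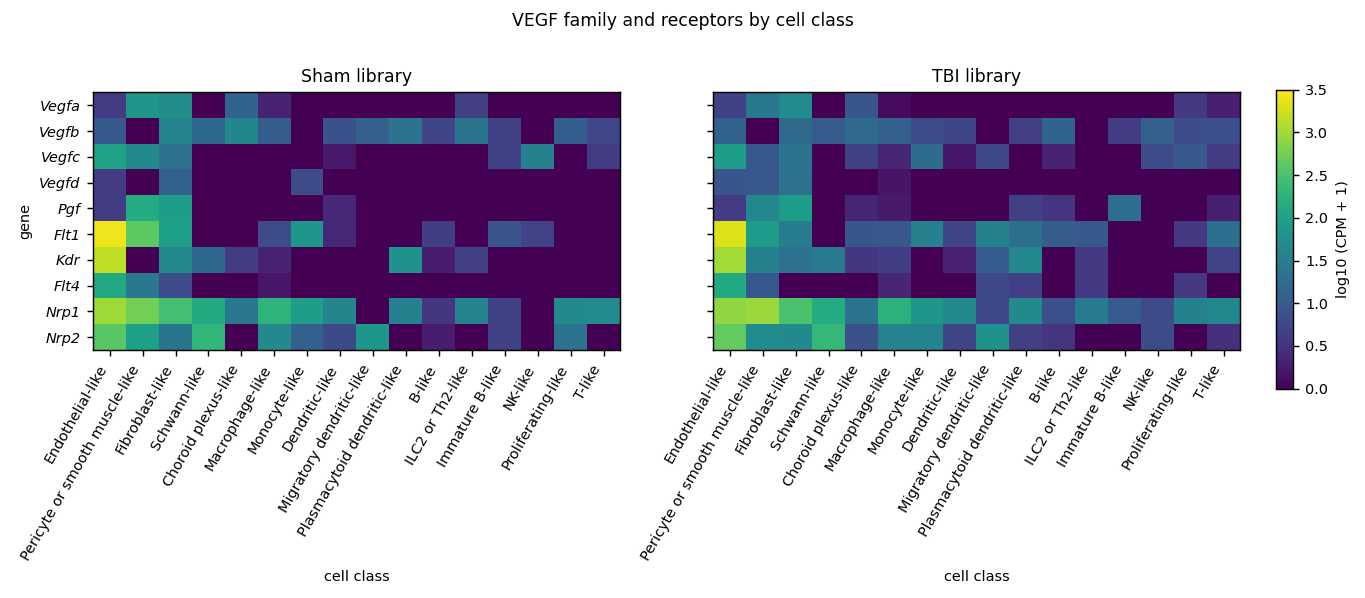
Level of each member (rows) in each of 16 cell classes (columns) as log10 of CPM + 1, in the Sham library (left) and the TBI library (right), 1 library each. Flt1, Kdr and Flt4 stand out in the endothelial-like column in both panels (Flt1 at 2617 and 2070 CPM), whereas Nrp1 is spread over endothelial-, pericyte-, fibroblast- and macrophage-like cells.

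The sequences just upstream of the 3 endothelial receptor genes are shown because these are the members whose counts fell into 1 class. They are the 250 bases before the RefSeq transcript start on GRCm38.p6, read 5′ to 3′ on the strand of the gene, with the core of the site bound by ETS factors (GGAAG, or its reverse complement CTTCC) in capitals. ETS factors such as ERG and FLI1 are transcription factors of endothelial genes.
Flt1, minus strand, chr5:147726012-147726261: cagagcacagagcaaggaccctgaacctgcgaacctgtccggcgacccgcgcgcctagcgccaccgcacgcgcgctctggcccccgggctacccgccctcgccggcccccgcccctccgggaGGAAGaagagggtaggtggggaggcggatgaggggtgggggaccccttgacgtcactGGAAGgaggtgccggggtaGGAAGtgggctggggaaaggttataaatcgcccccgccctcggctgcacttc
Kdr, minus strand, chr5:75978456-75978705: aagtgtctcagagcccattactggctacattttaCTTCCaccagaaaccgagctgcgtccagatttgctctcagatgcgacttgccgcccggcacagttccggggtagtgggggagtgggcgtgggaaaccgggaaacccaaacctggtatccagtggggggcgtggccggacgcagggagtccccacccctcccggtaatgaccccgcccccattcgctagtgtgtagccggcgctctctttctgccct
Flt4, plus strand, chr11:49609429-49609678: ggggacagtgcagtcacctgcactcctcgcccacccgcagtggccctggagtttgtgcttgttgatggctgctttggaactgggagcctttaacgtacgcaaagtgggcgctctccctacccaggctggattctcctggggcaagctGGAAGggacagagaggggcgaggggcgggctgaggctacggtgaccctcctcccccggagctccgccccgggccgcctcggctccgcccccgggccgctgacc
The core occurred 3 times before Flt1 and 1 time each before Kdr and Flt4. It is a common string, held by 64.1% of the 32851 upstream windows of the same length, and of the other members it was found before Nrp1 (3 times), Vegfa (1 time in each of its 2 windows) and Vegfd (1 time), and not before Vegfb, Vegfc, Pgf or Nrp2. The GC box GGGCGG or its reverse complement CCGCCC, in 32.7% of all windows, occurred 3 times before Flt1, 2 times before Kdr and 3 times before Flt4. The letters TATAAA or TTTATA, in 12.4% of all windows, were found before Flt1 and Vegfd only. The Flt4 window starts inside the gene as annotated above, since the RefSeq start lies further along. These are matches of letters and not measured binding.

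Within the endothelium the receptors were not spread evenly. The 4 endothelial-like clusters carried the markers of capillary-type cells (Gpihbp1, Igfbp3, Rgcc and Rbp7, 194 Sham and 308 TBI cells), venous-type cells (Vwf, Selp, Lrg1 and Nr2f2 among others, 53 and 140 cells), arterial-type cells (Gja5, Gja4, Sox17 and Hey1 among others, 48 and 90 cells) and barrier-type cells (Cldn5, Slco1a4, Slc2a1 and Abcb1a among others, 13 and 41 cells). The barrier-like cluster also had the venous-type markers Vwf, Lrg1 and Ackr1 and the arterial-type marker Sox17 among its leading genes. Its name therefore does not set it apart from venous-type cells. Kdr, the main signalling receptor for VEGF-A, was highest in the capillary-like cluster, at 2016 CPM (1875 to 2164) in Sham and 1539 CPM (1447 to 1636) in TBI. The arterial-like cluster had 546 CPM (408 to 716) and 468 CPM (368 to 588), and the venous-like cluster 560 CPM (431 to 715) and 471 CPM (404 to 547). Capillary-like cells were thus 3.66-fold (2.79 to 4.99) and 3.27-fold (2.60 to 4.22) above arterial-like cells for Kdr, in Sham and TBI.

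Flt1, the high-affinity receptor, varied less between the same clusters. It stood at 3037 and 2444 CPM in capillary-like, 1951 and 1706 CPM in venous-like, 1617 and 1594 CPM in arterial-like, and 3056 and 1687 CPM in barrier-like cells, Sham first. Capillary-like over arterial-like cells, the fold was 1.87 (1.59 to 2.24) in Sham and 1.53 (1.34 to 1.76) in TBI. In UMIs, Flt1 per Kdr was 1.51 and 1.59 in the capillary-like cluster and between 2.74 and 3.88 in the other 3, in either library. This ratio is read only as a change between clusters, since counts of different genes were not put on a common scale. After thinning to 1000 UMIs, 74.5% of Sham and 65.2% of TBI capillary-like cells held UMIs of both receptors, against 27.0% and 26.1% of arterial-like and 29.7% and 33.0% of venous-like cells.

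The neuropilins divided the endothelium between them. Nrp1, a co-receptor for VEGF-A that marks arteries in development, was at 1311 CPM (1198 to 1432) in Sham and 1212 CPM (1130 to 1298) in TBI capillary-like cells, 787 and 652 CPM in arterial-like cells, 437 and 390 CPM in venous-like cells and 98.6 and 158 CPM in barrier-like cells. Nrp2, known from veins and lymphatic vessels, had another order, with 936 CPM (767 to 1131) and 877 CPM (784 to 978) in venous-like, 460 and 580 CPM in barrier-like, 287 and 283 CPM in capillary-like and 73.5 and 101.2 CPM in arterial-like cells. For Nrp2, venous-like cells were 11.9-fold (5.97 to 32.4) above arterial-like cells in Sham and 8.42-fold (5.26 to 15.4) in TBI. Nrp1 UMIs per Nrp2 UMI went from 10.7 and 6.44 in arterial-like to 4.56 and 4.28 in capillary-like, 0.467 and 0.444 in venous-like and 0.214 and 0.273 in barrier-like cells. Only 3 Sham UMIs of Nrp1 lie behind the last value. Clustering the endothelial-like cells anew gave venous-, arterial- and barrier-like subclusters. In them, 180 of 193 venous-like and 110 of 138 arterial-like cells were found again. Nrp2 kept its order, from 945 and 890 CPM in the venous-like to 27.3 and 76.4 CPM in the arterial-like subcluster. The capillary-like cluster did not return as 1 named subcluster, since 304, 154 and 36 of its cells fell into separate unnamed ones. The subcluster with 36 of them had the immune genes Cd37, C1qc, C1qb and Igkc among its leading genes.

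**Figure D2:**
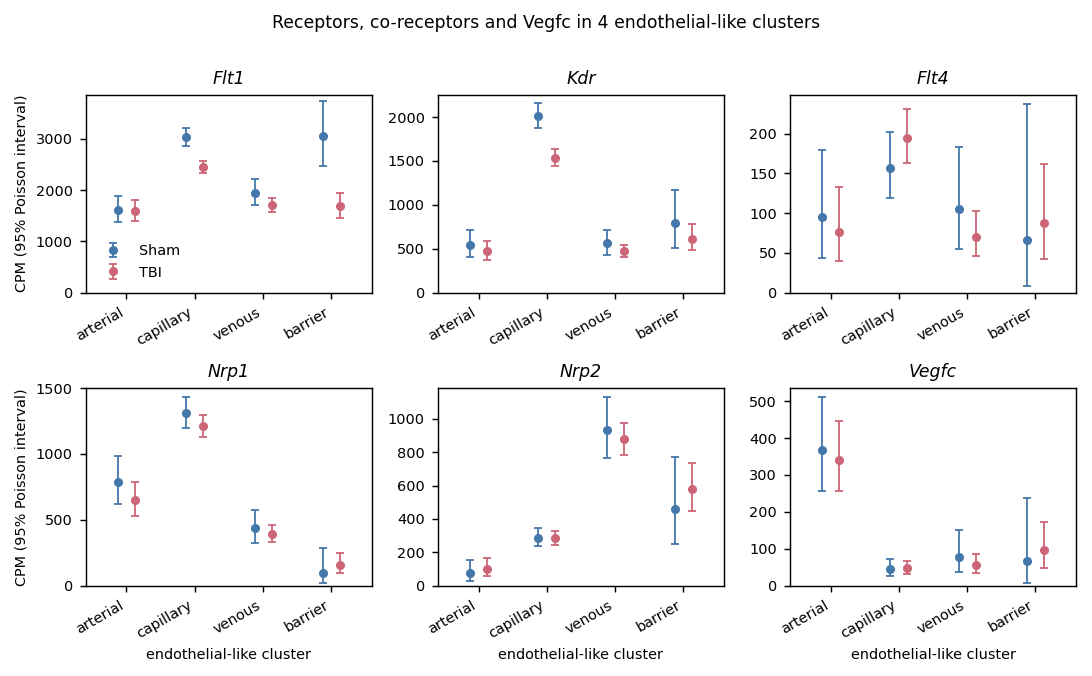
CPM (y axes, from 0) of 5 receptors or co-receptors and Vegfc in the arterial-, capillary-, venous- and barrier-like clusters (x axes), with exact 95% Poisson intervals as bars, Sham in blue and TBI in red, 1 library each. Kdr and Nrp1 are highest in capillary-like cells, Nrp2 in venous-like cells (936 and 877 CPM) and Vegfc in arterial-like cells (367 and 342 CPM).

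Flt4 came from blood vessel-like cells rather than from a lymphatic cluster. The capillary-like cluster held 59 of the 82 Sham and 132 of the 180 TBI endothelial UMIs, at 157 CPM (119 to 202) and 195 CPM (163 to 231). In TBI that was 2.73-fold (1.81 to 4.39) above venous-like and 2.47-fold (1.42 to 5.09) above arterial-like cells. The Sham folds of 1.45 (0.795 to 3.06) and 1.59 (0.818 to 3.81) had intervals that held 1. After clustering anew, Flt4 was at 213 CPM in Sham and 235 CPM in TBI in the unnamed subcluster with 304 capillary-like cells. In the unnamed subcluster with 154 such cells it was at 50.4 and 114 CPM. Cells with UMIs of at least 2 of the lymphatic markers Prox1, Mmrn1, Ccl21a and Reln were 1 of 308 in Sham and 2 of 579 in TBI, and they held 5 Flt4 UMIs in each library. Of the endothelial-like cells with a Flt4 UMI, 1 of 61 Sham and 2 of 143 TBI cells also had one of Prox1, the lymphatic master regulator. Lyve1, which lymphatic endothelium shares with border macrophages, had 2 and 15 UMIs in endothelial-like cells against 117 and 179 in macrophage-like cells. Lymphatic endothelium was therefore too rare in these libraries for a level of any member to be given.

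Outside the endothelium, Nrp1 was the most widely shared member. Its endothelial-like cells held 51.5% of 1206 Sham and 39.3% of 2764 TBI UMIs. Pericyte- or smooth muscle-like cells were at 559 CPM (358 to 832) and 927 CPM (764 to 1114), fibroblast-like cells at 280 CPM (228 to 340) and 314 CPM (292 to 339), and macrophage-like cells at 189 CPM (169 to 212) and 174 CPM (161 to 188). In Sham these 4 classes did not overlap, in the order endothelial-, pericyte-, fibroblast- and macrophage-like, whereas in TBI the first 2 were not distinguishable (824 CPM, 775 to 874, in endothelial-like cells). After thinning, 26.7% and 26.1% of fibroblast-like and 18.7% and 16.9% of macrophage-like cells had a Nrp1 UMI, against 0 of 334 and 1.50% of B-like cells, and 0 of 334 allows up to 0.898%.

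Both neuropilins were higher in the Folr2 than in the Cx3cr1 macrophage-like cluster. The remaining macrophage-like clusters were left out of this comparison, so no order over all of them is given. One of them, with a median of 921 UMIs per cell, also had Folr2, Cbr2 and Mrc1 among its markers. "Folr2 cluster" here means only the deeper cluster with these markers, at a median of 4706 UMIs. The cluster led by Folr2, Cd209f and Cbr2, genes of long-lived border macrophages, had 306 and 243 CPM of Nrp1 and 92.8 and 52.3 CPM of Nrp2. The cluster led by Fcgr4, Slamf9 and Cx3cr1 had 108 and 113 CPM of Nrp1 and 9.46 and 11.8 CPM of Nrp2. The fold between them was 2.84 (2.20 to 3.70) and 2.16 (1.82 to 2.58) for Nrp1, and 9.33 (4.64 to 23.9) and 4.33 (2.69 to 7.59) for Nrp2. Schwann-like cells came next after the endothelium for Nrp2 at 207 CPM (116 to 341) and 215 CPM (136 to 322), from 15 and 23 UMIs. Their Sham interval overlapped that of the pericyte- or smooth muscle-like class (93.1 CPM, 25.4 to 238). Migratory dendritic-like cells followed with 69.8 and 61.7 CPM from 13 UMIs in each library, at levels whose intervals overlapped those of the pericyte- or smooth muscle-like class.

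A few receptor UMIs outside the endothelium exceeded what the endothelial markers beside them would bring. Monocyte-like cells, which carry VEGFR-1 in textbook accounts, had 13 Flt1 UMIs in 8 of 34 Sham cells and 6 in 5 of 41 TBI cells, and no UMI of Kdr. At the ratio of Flt1 to 8 endothelial markers seen in endothelial-like cells, the marker UMIs in those cells would bring 2.47 and 0.163 Flt1 UMIs. Plasmacytoid dendritic-like cells had 9 and 11 Kdr UMIs, where that ratio gives 0.317 and 0.891, but the UMIs came from 3 cells in each library and up to 9 from 1 cell. Flt1 in TBI also had 7 UMIs in dendritic-like cells against 0.975 at that ratio, 7 in migratory dendritic-like cells against 2.28 and 18 in T-like cells against 8.78. Of the 7 in migratory dendritic-like cells, 6 lay in 1 cell that also had UMIs of at least 3 endothelial markers. In fibroblast-like cells Flt1 had 34 and 66 UMIs against 25.6 and 45.4, and Kdr 15 and 43 against 14.3 and 22.6. B-like cells, which should lack both kinases, also exceeded the ratio for Flt1, with 4 and 8 UMIs against 2.28 and 5.04. Their Kdr counts of 1 and 0 were below the 1.27 and 2.51 at that ratio. A small excess thus also occurred in a class that should have none. In macrophage-like cells the 9 and 29 Flt1 UMIs stood beside 10.1 and 42.4 at that ratio, and the 2 and 13 Kdr UMIs beside 5.60 and 21.2.

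Most UMIs of the ligands Vegfa and Pgf lay in fibroblast-like cells and not in the endothelium. Vegfa, the main angiogenic factor, had 35 Sham and 126 TBI UMIs, of which fibroblast-like cells held 54.3% and 84.9%, at 52.7 CPM (31.7 to 82.2) and 47.7 CPM (39.1 to 57.7). Pgf, the ligand of Flt1 alone among the kinases, had 43 and 225 UMIs, with 76.7% and 89.3% in fibroblast-like cells, at 91.5 CPM (63.0 to 128) and 89.6 CPM (77.7 to 103). The rise in the fibroblast share of the UMIs went with more fibroblast-like cells, 5.78% of Sham and 20.1% of TBI cells, and the level per UMI in the class was close in both libraries. Pericyte- or smooth muscle-like cells had Vegfa levels of 69.9 and 24.6 CPM from 3 UMIs in each library and Pgf levels of 140 and 41.0 CPM from 6 and 5 UMIs, with intervals that overlapped those of fibroblast-like cells. Macrophage-like cells had 2 and 1 Vegfa UMIs in 400 and 849 cells, or 1.23 and 0.270 CPM, and endothelial-like cells 2 and 5 UMIs.

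Vegfa and Pgf differed in level between the 2 fibroblast-like clusters, and both genes had UMIs in each. The larger cluster, led by Ptgds, Pcolce and Fbln1 (64 Sham and 448 TBI cells), had 109 CPM (73.0 to 157) and 101.5 CPM (86.7 to 118) of Pgf but 26.3 CPM (10.6 to 54.2) and 27.3 CPM (19.9 to 36.6) of Vegfa. The smaller one, led by Snhg11, Foxp2 and Slc47a1 (54 and 310 cells), had 127 CPM (65.4 to 221) and 104 CPM (79.7 to 133) of Vegfa and 42.2 CPM (11.5 to 108) and 57.0 CPM (39.5 to 79.6) of Pgf. Vegfa was 4.67-fold (1.74 to 14.4) and 3.79-fold (2.55 to 5.71) higher in the Foxp2 cluster. That cluster was also shallower, with a median of 1678 UMIs per cell against 3094.5 in the Ptgds cluster. Meg3 and Mir100hg were among its leading genes too. Whether the Vegfa difference goes with a fibroblast subtype or with the state of these cells was not tested. Pgf was 1.76-fold (1.23 to 2.66) higher in the Ptgds cluster in TBI, and the Sham fold of 2.34 had an interval from 0.908 to 10.1. Neither cluster was named for a meningeal layer when its genes were ranked over other cells. Among the leading genes used for class names, the Ptgds cluster had Ptgds, Slc47a1 and Cldn11 within its 17 fibroblast markers. These 3 are arachnoid markers in the marker list used here, and a name needed at least 3. The Foxp2 cluster had Slc47a1 within its 9. The paper uses Ptgds as a marker of arachnoid fibroblasts, but from its layer markers it places most of its fibroblasts in the dura. The missing layer name therefore does not show that a layer signature is absent. The Foxp2 cluster held 74 of the 161 Vegfa UMIs.

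Vegfc, the lymphatic ligand that is cut into its active form outside the cell, was an endothelial transcript here. Endothelial-like cells held 75.0% of 84 Sham and 62.1% of 190 TBI UMIs, at 102 CPM (78.6 to 131) and 89.5 CPM (74.1 to 107). Arterial-like cells had the highest level, with 367 CPM (256 to 511) and 342 CPM (257 to 446), and a Vegfc UMI in 39.6% and 41.1% of their cells. That was 8.01-fold (4.43 to 15.5) and 7.19-fold (4.59 to 11.6) above capillary-like cells. Fibroblast-like cells came next in TBI with 21.4 CPM from 48 UMIs. In Sham their 19.4 CPM from 7 UMIs stood after pericyte- or smooth muscle-like (46.6 CPM, 2 UMIs) and NK-like cells (32.0 CPM), and the intervals overlapped. NK-like cells had 8 Vegfc UMIs in 8 of 72 Sham cells and 1 in 56 TBI cells.

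Vegfd and Vegfb were sparse. Vegfd, the second ligand of Flt4, had 7 Sham and 57 TBI UMIs, 57.1% and 77.2% of them in fibroblast-like cells (11.1 CPM, 3.02 to 28.4, and 19.6 CPM, 14.3 to 26.3), and 12 of the 44 fibroblast-like UMIs in TBI came from 1 cell. Venous-like cells held 2 and 6 further Vegfd UMIs, and barrier-like cells 0 and 3. Vegfb, a ligand of Flt1 and Nrp1 tied to fatty acid handling, had 80 and 139 UMIs and no main source. Macrophage-like cells held the most UMIs (20.0% and 28.8%), and by level choroid plexus-like (39.0 and 15.2 CPM) and fibroblast-like cells (36.0 and 15.2 CPM) came first, with intervals that overlapped each other and those of the classes next in order.

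**Figure D3:**
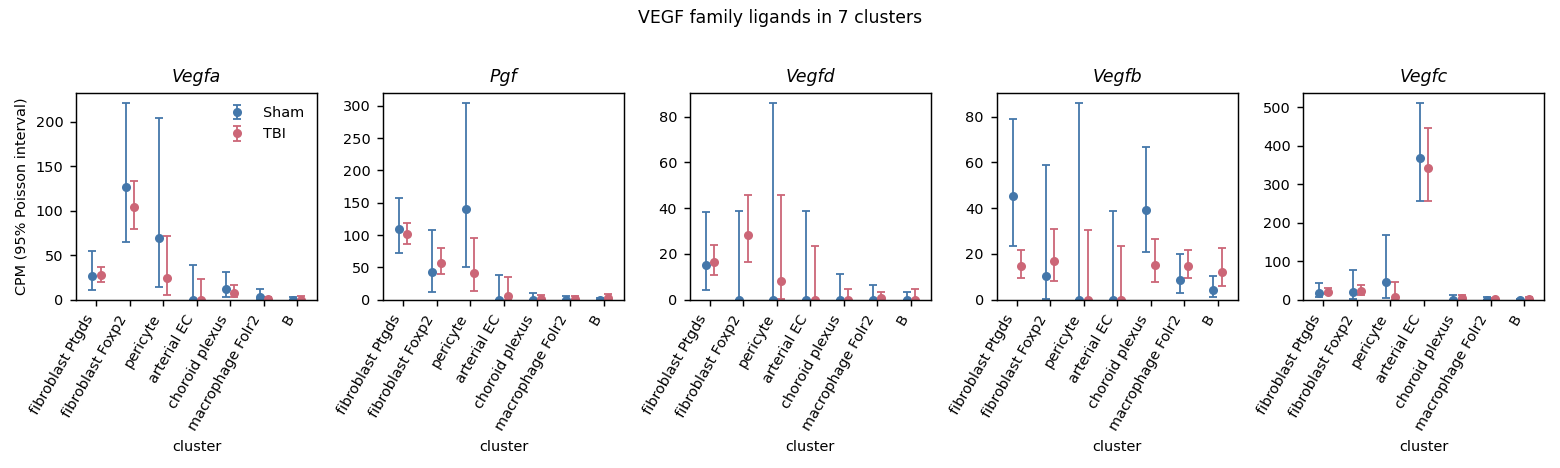
CPM (y axes, from 0) of the 5 ligands in 7 clusters (x axes: 2 fibroblast-like, pericyte- or smooth muscle-like, arterial-like endothelial, choroid plexus-like, Folr2 macrophage-like and B-like), with exact 95% Poisson intervals, Sham in blue and TBI in red. Vegfa is highest in the Foxp2 fibroblast-like cluster (127 and 104 CPM), Pgf in the Ptgds cluster or pericytes, and Vegfc in arterial-like endothelium, while the wide bars of Vegfd and Vegfb reflect few UMIs.

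Across the 32 sums of 16 classes in 2 libraries, the genes nearest to each member in pattern were listed. The measure was Pearson's r of log2 (CPM + 10), described over 9873 genes with at least 200 UMIs, and the points share libraries and depth. Flt1 lay nearest to Irx3, Tie1 and Emcn (r = 0.946, 0.945 and 0.942), Kdr to Meox1, Ccm2l and Gpihbp1 (0.929, 0.918 and 0.910), and Flt4 to Tie1, Sox7 and Thrsp (0.978, 0.977 and 0.977). Vegfc lay nearest to Nrarp, Sox18 and Fam174b (0.893, 0.877 and 0.866), and thus next to endothelial genes. Vegfa was nearest to Trabd2b, C1qtnf5 and Rgma (0.952, 0.951 and 0.947), and Pgf to Cd248, Trabd2b and Cacna1c (0.956, 0.953 and 0.952). Nrp1 was nearest to Pros1, Mtus1 and Sash1 (0.931, 0.906 and 0.902), Nrp2 to Arhgap31, Mapk3 and Rasal2 (0.903, 0.883 and 0.870) and Vegfd to Crispld1, Slc16a11 and Ric3 (0.873, 0.866 and 0.864). For Vegfb the nearest genes, Abcd3 and Tvp23b, reached only 0.705 and 0.680. Among the members themselves, Flt1 and Flt4 (0.919) and Vegfa and Pgf (0.918) were the closest pairs.

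Sham and TBI were compared within each class, to ask whether a mild injury moved the family 1 week later. A gene counted as past the limit when its CPM differed by at least 1.5-fold and it had at least 50 UMIs in the 2 libraries together. In endothelial-like cells 6 members could be judged and none was past the limit in either direction, where 5.65% of 6214 genes were higher and 4.10% lower in TBI. Kdr was 1458 CPM in Sham and 1032 CPM in TBI, a log2 ratio of -0.50 (-0.62 to -0.37), and 6.60% of genes had a lower ratio. Flt1 was at -0.34 (-0.43 to -0.25) and Nrp1 at -0.29 (-0.44 to -0.15), and 14.2% and 17.5% of genes lay below them. Nrp2 was at 0.24 (0.02 to 0.47), Vegfc at -0.20 (-0.65 to 0.27) and Flt4 at 0.03 (-0.35 to 0.43), beside a median of 0.01 over all genes.

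The makeup of the endothelium also differed between the libraries, and whether it accounts for any of these differences was not tested. Capillary-like cells were 63.0% (57.3 to 68.4) of Sham and 53.2% (49.0 to 57.3) of TBI endothelial-like cells, venous-like cells 17.2% (13.2 to 21.9) and 24.2% (20.7 to 27.9), and barrier-like cells 4.22% and 7.08%. With the 4 clusters held at the same share in both libraries, the log2 ratio was -0.36 for Kdr, -0.30 for Flt1, -0.13 for Nrp1 and -0.01 for Nrp2. Kdr and Flt1 were below 0 in all 4 clusters, from -0.39 to -0.23 for Kdr and from -0.86 to -0.02 for Flt1. After clustering anew, Flt1 was above 0 in the arterial-like subcluster, at 0.10 (-0.26 to 0.48), and below 0 in the other subclusters. The low end for Flt1 came from the barrier-like cluster, 3056 CPM (2467 to 3744) in 13 Sham cells and 1687 CPM (1457 to 1944) in 41 TBI cells. After thinning, 80.4% of Sham and 70.3% of TBI capillary-like cells had a Kdr UMI. No replicate shows how much 2 pools of the same group would differ.

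**Figure D4:**
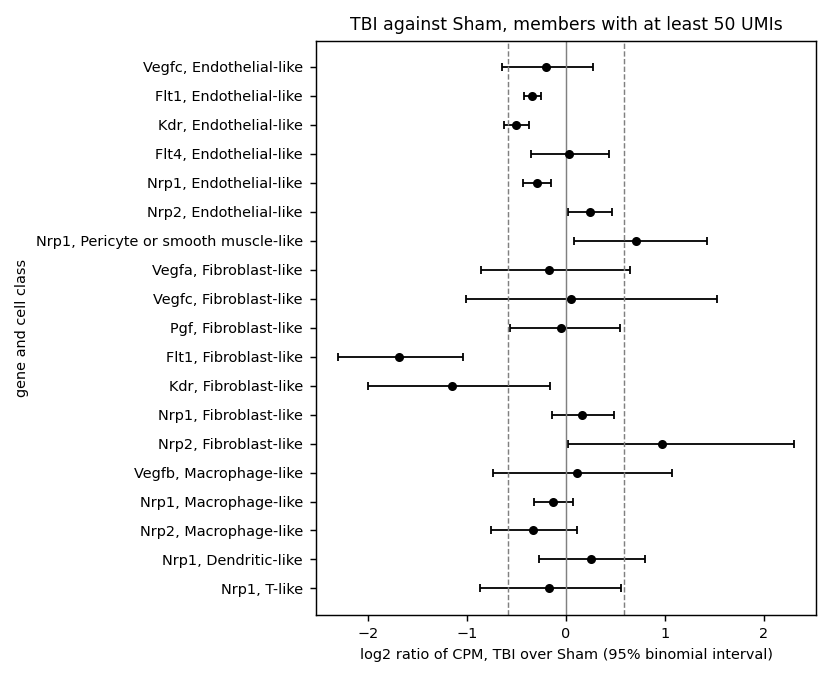
Log2 ratio of CPM, TBI over Sham (x axis), of each member in each class where it had at least 50 UMIs (rows), with exact 95% binomial intervals that cover counting error only, and dashed lines at 1.5-fold. The 6 endothelial-like values lie between the dashed lines, and Flt1 (-1.69), Kdr (-1.15) and Nrp2 (0.97) in fibroblast-like cells and Nrp1 (0.71) in pericyte- or smooth muscle-like cells lie outside.

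In fibroblast-like cells 7 members could be judged, and 2 were past the limit towards lower and 1 towards higher values in TBI, where 8.32% of 7887 genes were lower and 8.81% higher. Flt1 was 94.2 CPM (65.3 to 132) in Sham and 29.4 CPM (22.8 to 37.4) in TBI, a log2 ratio of -1.69 (-2.30 to -1.04), and Kdr 41.6 and 19.2 CPM, a ratio of -1.15 (-1.99 to -0.16). These UMIs came from few cells. The 34 Sham UMIs of Flt1 lay in 4 of 118 cells, 31 of them in 2 cells that also had UMIs of at least 3 of 8 endothelial markers, and 49 of the 66 TBI UMIs lay in 6 such cells. Without such cells the ratio was -0.34 for Flt1, with 3 Sham and 17 TBI UMIs left, and for Kdr it changed sign to 1.24, with 1 and 22 UMIs left, all under the minimum. With predicted doublets removed Flt1 was at -2.69, and without the top cell of each library Kdr was at -0.38.

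Nrp2 was 22.2 CPM (9.57 to 43.7) in Sham and 45.9 CPM (37.5 to 55.7) in TBI fibroblast-like cells, a log2 ratio of 0.97 (0.02 to 2.30). The Sham value rests on 8 UMIs in 6 cells, and the share of cells with a Nrp2 UMI was 5.08% and 6.33% at full depth. At the thinned depth the order was the other way, with overlapping intervals. The shares were then 4.65% (1.28 to 11.5) of 86 Sham and 3.46% (2.21 to 5.15) of 664 TBI cells. The top cell held 3 of the 8 Sham and 15 of the 103 TBI UMIs. Predicted doublets held 3 of the Sham and 13 of the TBI UMIs. The log2 ratio was -0.05 (-0.57 to 0.55) for Pgf, -0.17 (-0.86 to 0.64) for Vegfa and 0.06 (-1.01 to 1.53) for Vegfc, and that of Nrp1 was 0.16 (-0.14 to 0.48), against a median of -0.03 over all genes. Vegfb, with 47 UMIs, was under the minimum and had 36.0 CPM in Sham and 15.2 CPM in TBI, a ratio of -1.28 (-2.21 to -0.20). Vegfd was also under it, at 11.1 and 19.6 CPM from 4 and 44 UMIs, a ratio of 0.67 (-0.63 to 2.76).

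Of the 3 members that could be judged in macrophage-like cells, none was past the limit, where 4.93% of 8020 genes were higher and 2.64% lower in TBI. Nrp1 was at -0.13 (-0.32 to 0.08), Nrp2 at -0.33 (-0.76 to 0.12) and Vegfb at 0.11 (-0.73 to 1.07). By cluster, Nrp2 was at -0.83 (-1.33 to -0.31) in the Folr2 cluster and 0.27 (-0.92 to 1.72) in the Cx3cr1 cluster. It was at 0.63 and 0.05 in the other 2 clusters, which had 4 Sham UMIs each. The value of 0.63 belongs to the shallower cluster that also had Folr2 among its markers. With the macrophage-like clusters held at the same share in both libraries, Nrp1 was at -0.24, Nrp2 at -0.51 and Vegfb at 0.21. As a mean over cells, Nrp2 in the class was at 0.19. Median depth in the class was 1940.5 UMIs per cell in Sham and 3586 in TBI, and its part in this sign was not tested. In pericyte- or smooth muscle-like cells only Nrp1 could be judged, and it was past the limit, at 559 CPM in 23 Sham cells and 927 CPM in 70 TBI cells (log2 ratio 0.71, 0.08 to 1.43), where 18.5% of 437 genes were higher and 12.6% lower in TBI. It was 0.25 without the 1 Sham and 3 TBI cells of that class that had UMIs of at least 3 endothelial markers. Predicted doublets held 1 of the 24 Sham and 32 of the 113 TBI UMIs. After thinning, a Nrp1 UMI was found in 46.2% of 13 Sham and 48.8% of 41 TBI cells of the class. Nrp1 was at 0.25 (-0.27 to 0.80) in dendritic-like and -0.17 (-0.87 to 0.56) in T-like cells.

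The wider pathway was read from 6 lists. Of the angiopoietin and junction partners (Tek, Tie1, Cdh5 and others, which steady the vessel wall), 7 of 9 genes could be judged in endothelial-like cells, and none was past the limit, with a median log2 ratio of -0.16. Of the neuropilin ligands and plexins, 1 of 6 was past it, Sema3c at 66.6 CPM in Sham and 41.7 CPM in TBI (log2 ratio -0.68, -1.28 to -0.05), and none of the 6 was above 0. Of 18 receptor signalling genes, 1 was past the limit and lower in TBI. It was Hspb1, the small heat shock protein HSP27 that is phosphorylated downstream of VEGFR-2, at 1761 and 1079 CPM (-0.71, -0.82 to -0.59). By cluster its ratio was -0.75 (-0.88 to -0.61) in capillary-like, -0.30 in arterial-like, 0.03 in venous-like and 0.13 in barrier-like cells.

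Among 11 VEGF-induced and Notch genes in endothelial-like cells, 1 was higher in TBI, the immediate early nuclear receptor Nr4a1, at 187 and 293 CPM (0.65, 0.35 to 0.97). Its ratio was above 0 in each of the 4 endothelial-like clusters, from 0.24 to 1.92. Among 12 genes of the hypoxia axis, the glucose transporter gene Slc2a1 was higher, at 141 and 331 CPM (1.22, 0.89 to 1.58), and the oxygen sensor gene Egln1 lower, at 48.7 and 29.6 CPM (-0.72, -1.44 to 0.02). Slc2a1 marks barrier endothelium, and 63 of 87 Sham and 345 of 436 TBI UMIs were in the barrier-like cluster, whose own ratio was 0.54 (0.16 to 0.96). Of 5 genes of VEGF-C processing, the protease gene Pcsk5 was lower, at 50.3 and 33.4 CPM (-0.60, -1.29 to 0.12). Most Pcsk5 UMIs, 25 in Sham and 36 in TBI, were in the arterial-like cluster, whose own ratio was -0.21 (-0.98 to 0.59). Over these 6 lists, 2 of 59 genes judged (3.39%) were higher and 4 (6.78%) lower in TBI, beside 5.65% and 4.10% of all genes in this class.

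In fibroblast-like cells 4 of the 57 list genes judged (7.02%) were higher and 8 (14.0%) lower in TBI, beside 8.81% and 8.32% of all genes. The numbers judged were 6 junction partners, 8 neuropilin ligands and plexins, 18 signalling genes, 7 VEGF-induced and Notch genes, 12 of the hypoxia axis and 6 of VEGF-C processing. Those past the limit included Ptprb (-1.31) and S1pr1 (-1.59) of the junction partners, Sema3d (0.61) of the semaphorins, Pik3ca (-0.73), Hspb1 (0.71) and Ptk2 (-0.62) of receptor signalling, Nr4a1 (1.06) and Notch1 (-0.62), Bnip3 (1.34) of the hypoxia axis, and Pcsk7 (-0.61) and Adamts3 (-0.60), which act on pro-VEGF-C. Adamts3 differed in sign by cluster, at 0.22 (-1.13 to 2.33) in the Ptgds cluster and -1.35 (-2.47 to -0.00352) in the Foxp2 cluster. Sham UMIs in these clusters were 4 and 1 for Bnip3, and 6 and 2 for Sema3d. Ptprb and S1pr1 are endothelial genes, at 49.9 and 58.2 CPM in Sham and 20.5 and 19.6 CPM in TBI. Both were lower in TBI beside Flt1 and Kdr in this class. In macrophage-like cells 4 of 44 list genes judged (9.09%) were higher and 1 (2.27%) lower, beside 4.93% and 2.64% of all genes, and they were Plxna1 (0.66), Hspb1 (1.98), Nr4a1 (1.37), Rcan1 (0.67) and Nid2 (-0.81). Nr4a1 was thus past the limit towards TBI in all 3 classes, with 38 and 500 UMIs (105 and 223 CPM) in fibroblast-like and 13 and 79 UMIs in macrophage-like cells. The Sham value of Rcan1 in macrophage-like cells rests on 7 UMIs in the Folr2 and 4 in the Cx3cr1 cluster.

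**Figure D5:**
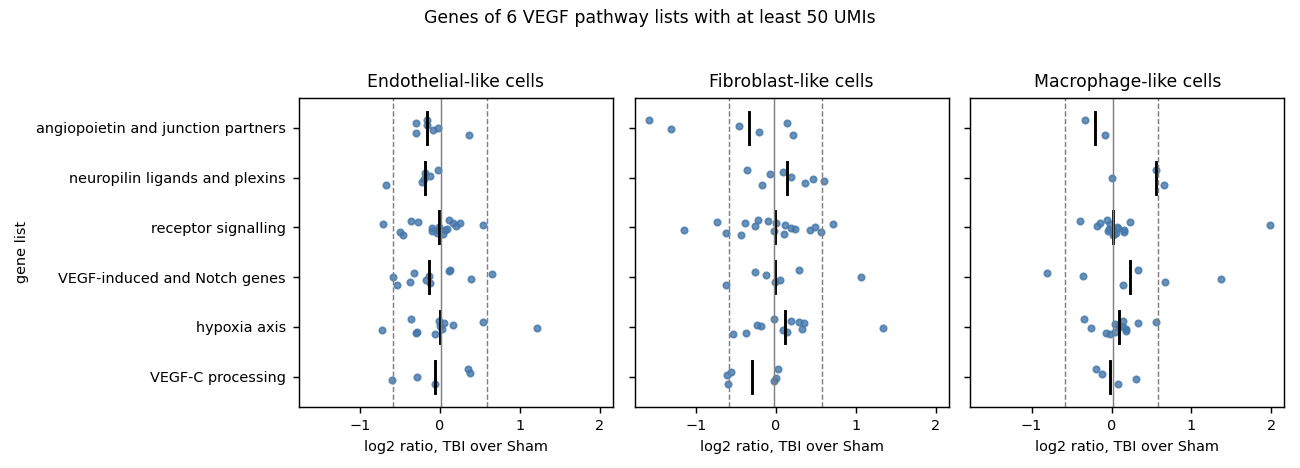
Log2 ratio of TBI over Sham (x axis) of each list gene with at least 50 UMIs (points) in endothelial-, fibroblast- and macrophage-like cells (panels), by list (rows), with the list median as a black bar, the median of all genes as a grey line and 1.5-fold as dashed lines. Most points lie between the dashed lines, with Slc2a1 at 1.22 in the first panel, Ptprb and S1pr1 below -1 in the second, and Hspb1 at 1.98 in the third.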

How the data were processed

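Single-cell 3' RNA-seq libraries were made from sorted live cells of pooled dorsal meninges, 1 Sham and 1 TBI. The deposited values are raw UMI counts per gene and cell, made by the authors with Cell Ranger (2.1.1 in the submitters' processing notes, 3.1.0 in the matrix headers) on mm10. Cells with 150 to 5000 genes, at most 20% mitochondrial and at most 5% hemoglobin counts were kept. Counts were clustered without the 10 members (2000 variable genes, 20 components, 20 neighbours, Leiden resolution 0.8; leidenalg 0.10.2, Python 3.11.15), and a cluster was named from at least 3 fixed markers among its 50 leading genes. Predicted doublets (33 Sham and 114 TBI cells) were kept and were removed in an alternative. UMIs were summed per class and library. Intervals are exact Poisson, binomial or conditional binomial at 95%, and a log2 ratio has 0.5 added to each sum. The share that a count of 0 allows was taken from 3 counts instead. Ratio code was checked on simulated counts. There, genes set to no change passed the 1.5-fold limit in either direction from counting error alone. Their shares were 5.62% in endothelial-like, 12.3% in fibroblast-like and 4.44% in macrophage-like cells. The members, gene lists, markers and comparisons were chosen with earlier results of these data known. Genes named are the members, their 3 nearest genes in pattern, markers, and up to 4 list genes past the limit per list and class. Alternatives changed the filters, scaling, clustering, depth and cells used. Some genes that met the naming rule are not reported here.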

Additional observations from a re-analysis of the deposited data

Results flagged for a closer look

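Hspb1, a receptor signalling gene, moved in opposite directions by class, with a log2 ratio of TBI over Sham of -0.71 in endothelial-like cells, 0.71 in fibroblast-like cells and 1.98 in macrophage-like cells. The difference between classes was not tested, since each group is 1 library. In macrophage-like cells 132 of the 175 TBI UMIs came from the cluster led by Stab1, Hpgds and Mrc1, whose own ratio was 3.17 (2.04 to 4.95). The Folr2 cluster was at -0.28 (-1.35 to 0.99), and the remaining macrophage-like clusters were at 1.24 and 0.78. Within the endothelium, venous- and barrier-like clusters were at 0.03 and 0.13, so the direction was not shared by all clusters of a class.

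Barcodes left out by the filters on cells also held UMIs of the members, 128 in Sham and 146 in TBI.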

How the results depend on the processing

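No paired analysis was possible because each group is 1 library. Of 285 values of the 19 member ratios under 15 alternatives, 278 moved by less than their counting interval, and the cause of the others was not tested unless stated. In fibroblast-like cells the count of members past the limit, 3, became 1 with predicted doublets removed and 1 without cells that had at least 3 endothelial markers (chosen after seeing the data). There the ratio of Kdr turned to 1.24, that of Flt1 was -0.34, and with doublets removed Flt1 was at -2.69. With no minimum of UMIs the counts were 1 in endothelial-like, 6 in fibroblast-like and 6 in macrophage-like cells, since genes with few UMIs then enter. With the endothelial clusters held at equal shares (also chosen afterwards), Kdr was at -0.36 and Nrp1 at -0.13. As a mean over cells, Nrp2 in macrophage-like cells was at 0.19. Fewer UMIs of the ligands limit what could be seen for them.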

Other observations

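The unnamed cluster led by Vtn, Meg3 and Esm1 (9 Sham and 47 TBI cells) had 1 and 10 Kdr UMIs. T-like cells had 0 Flt1 UMIs in Sham and 18 in TBI, beside 1 and 54 UMIs of 8 endothelial markers. At the ratio of endothelial-like cells those 54 would bring 8.78 Flt1 UMIs, and 11 of the 18 lay in 3 cells with at least 3 of the markers.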
